A study of Danio rerio with 6 samples.

Results

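The transcriptome described here is that of zebrafish neuroblastomas driven by MYCN alone, given by 3 of the 6 RNA-seq libraries of the series. The libraries were taken by their genotype label, MYCN overexpression only, and by the 3 count columns that carry the matching names. The series sets such tumours beside tumours of fish that also lack gas7, which encodes a protein that binds membranes and actin. The other 3 libraries were not analysed here, and no contrast with them was made. The labels give the tissue as the peripheral sympathetic nervous system. The sources used here do not give the promoter of the transgene, the strain, age and sex of the fish, or whether fish were pooled. Nothing in the labels says that each library came from a separate fish, so the spread reported below is that between these 3 samples.

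Neuroblastoma arises from sympathoadrenal precursors of the neural crest, cells that normally become sympathetic neurons or chromaffin cells and make noradrenaline from tyrosine. In zebrafish, the chromaffin cells lie among steroid-producing cells in the interrenal gland, which is set in the head kidney, a blood-forming organ. MYCN is a transcription factor that dimerizes with MAX and is known for driving genes of ribosome production, nucleotide synthesis and cell division.

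Total counts were 15256412, 12054844 and 16624086 in libraries 1, 2 and 3. Of 14781 gene symbols in the table, 722 had no count in the 3 libraries and 12024 passed the low-count filter, called expressed below. Levels are given as CPM, the count scaled to a standard library size after TMM, a method that makes the bulk of genes match between libraries. The limit for a count of 0 was set at 3 counts, or 0.183, 0.274 and 0.176 CPM in libraries 1, 2 and 3, counting error only. This limit is separate from the Poisson intervals used below. The defining markers of sympathetic cells were present in every library, since th, dbh, ddc and slc18a2 for catecholamines and phox2bb, phox2a, hand2 and gata3 for transcription factors were all read, the lowest value being 199.8 CPM for gata3 in library 2.

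The most read transcripts were those of the cell's general machinery. By share of counts, which grows with the length of a transcript as well as with its abundance, the noncoding RNA rn7sk, which restrains transcription elongation, came first in each library, with 2.43%, 2.25% and 2.93% of the counts in libraries 1, 2 and 3. The translation elongation factor gene eef1a1l1 came next with 2.204%, 1.954% and 2.458%, ahead of the elongation factor gene eef2b with 1.48%, 1.63% and 1.71%. The RNA component of ribonuclease P, rpph1, took 1.15%, 0.931% and 1.08%. The first 20 named symbols by mean share also held the chaperone genes hsp90ab1 and hspa8, the actin gene actb2 and 7 ribosomal protein genes, led by rplp0, rpl3 and rps2. Together, 81 cytosolic ribosomal protein symbols took 17.0%, 14.7% and 16.2% of the counts. The 95% Wilson interval of any such share reached no more than 0.0282 percentage points to either side, for counting error only.

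Among the same 20 symbols, apobb.1, apoa1b and tfa encode plasma proteins that the liver is known to make, and these 3 were also the ones that differed at least 2-fold between libraries. The apolipoprotein B gene apobb.1 was read at 3598, 14270.4 and 5844 CPM in libraries 1, 2 and 3, and tfa, which encodes the plasma iron carrier transferrin, at 250.3, 10449.5 and 3996 CPM. Library 2 was highest and library 1 lowest for both. The endopeptidase gene phex, known for its part in phosphate handling by bone, stood among the 20 as well, at 4852, 3099 and 4065 CPM, or 4005 ± 878 CPM (SD, n = 3).

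The counts were spread over many genes. The 398, 313 and 373 most read symbols held 50% of the counts in libraries 1, 2 and 3, and the first 10 held 11.7%, 12.8% and 12.7%. At least 1 CPM was reached by 12148, 12433 and 12086 symbols, at least 100 CPM by 1565, 1755 and 1619, and at least 1000 CPM by 114, 147 and 118. Library 2 had the smallest total, needed the fewest genes for 50% of its counts and had the most genes above each of these levels.

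**Figure D1:**
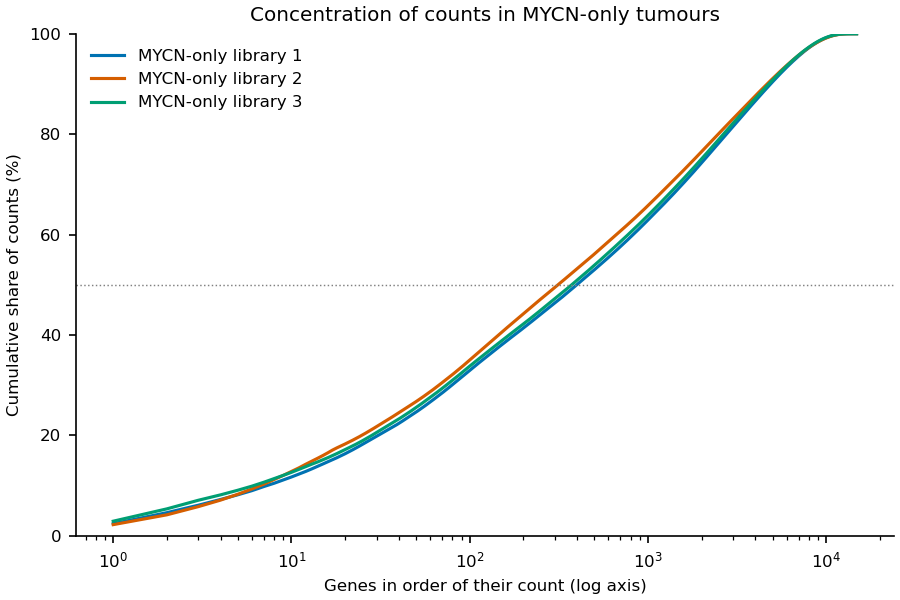
Cumulative share of counts (%, y axis) over gene symbols ordered from most to least read within each of the 3 MYCN-only libraries (x axis, log scale). The dotted line marks 50%, which was crossed at 398, 313 and 373 symbols in libraries 1, 2 and 3, so the curve of library 2 rises earliest.

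The 3 libraries differed more than counting error for most genes. For each expressed gene the range was taken as the highest minus the lowest library in log2 CPM. Its median was 0.56, or 1.48-fold, its 90th percentile 1.72, or 3.30-fold, and its 99th percentile 4.77, or 27.4-fold. At least 2-fold separated the highest from the lowest library in 2996 genes (24.9% of the 12024), and at least 4-fold in 882 (7.34%). The exact Poisson 95% intervals of the highest and the lowest library lay apart in 2936 of the 2996 genes, in all 882 and in 9157 of the 12024 (76.2%). These counts only describe, since the libraries compared were picked by their values. The low-count filter and the 4-fold limit also left the intervals of the 882 little room to meet. Without library 1, 2 or 3, the 2-fold count was 2032, 1358 or 1960 and the 4-fold count 533, 290 or 589. The biological coefficient of variation, the spread between libraries beyond counting error, was 39.4% when fitted in common to all expressed genes. It was 31.8% without library 2. A value was also estimated for each gene, pulled toward a fitted trend over level that ran from 33.5% to 47.5%. Its median was 32.3%, which is not a spread measured from each gene alone. The median of the plain coefficient of variation, counting error included, was 20.5%, so 39.4% is not the spread of a typical gene.

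Spread fell with level. Genes with a mean under 10 CPM had a median coefficient of variation of 33.6%, where counting alone would give 11.8%, and 45.3% of these 2992 genes differed at least 2-fold. From 10 to 100 CPM, the median was 18.3% against 4.80% from counting, and from 100 to 1000 CPM it was 14.4% against 2.03%. The 124 genes over 1000 CPM had a median of 6.56% against 0.609%. The share of genes with a 2-fold range was 18.7%, 16.3% and 12.1% in the 3 higher classes. The share with a 4-fold range did not fall in the same steps, at 11.9%, 5.403%, 7.72% and 6.45% in the 4 classes of rising level. The lists below are set against the share of all expressed genes, without matching for level.

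The gaps had a direction. Between libraries 1 and 2, 1913 genes differed at least 2-fold, 511 of them higher in library 1 and 1402 higher in library 2. Between libraries 2 and 3 the number was 2021, with 1495 higher in library 2 and 526 higher in library 3. Libraries 1 and 3 differed in fewer genes, 1308, with 657 higher in library 1 and 651 higher in library 3. Of the 882 genes with a 4-fold range, library 2 was the highest in 679 (77.0%), library 1 in 111 and library 3 in 92, and the lowest was library 1 in 396, library 3 in 375 and library 2 in 111. With the library left out that moved each figure most, library 1 was lowest in 174 and library 3 in 116, both without library 2, library 2 was lowest in 66 without library 1, and library 3 was highest in 174 without library 2. With no fold limit, library 2 exceeded library 1 in 5943 of the 12024 genes. Library 3 exceeded library 1 in 5986 and library 2 in 6086. How many of all expressed genes had each library highest or lowest is not given here. Such counts for the lists below only describe their members. Pearson's r of log2 CPM over the 12024 expressed genes, a description since genes are no replicates, was 0.883 for libraries 1 and 2, 0.940 for 1 and 3, and 0.903 for 2 and 3.

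Genes of known tissues were among those with wide ranges. Of the 882 genes, 158 (17.9%) belonged to a host tissue list, 26 (2.95%) to a tumour list and 125 (14.2%) had only a placeholder symbol. Of all 12024 expressed genes, 4.09%, 1.497% and 10.9% fell into these classes. The lists were chosen with earlier results of these data known, so these shares and the list counts below describe and test nothing. The 679 that were highest in library 2 included 42 liver genes, 43 skeletal muscle genes and 5 gut genes. Of the 111 that were highest in library 1, 10 were gut genes. These lists hold 45, 55 and 36 of the 12024 expressed genes, and most of the 679 belong to none of them. The plot of gene-by-gene differences shows these groups as separate arms around a dense centre.

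**Figure D2:**
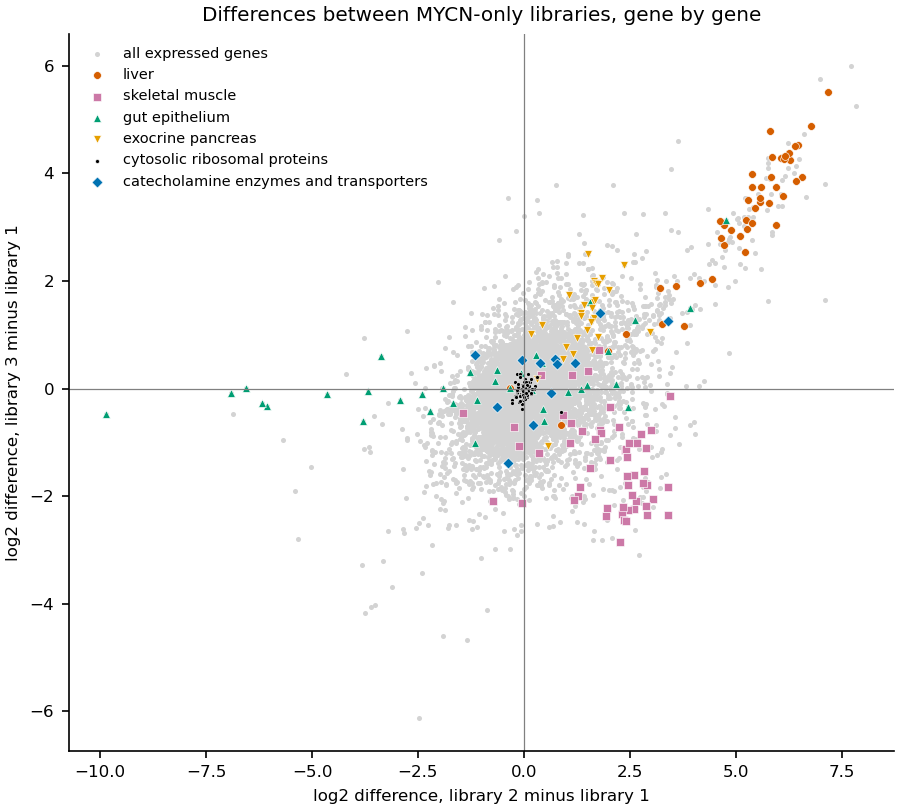
Each point is an expressed gene of the MYCN-only tumours, placed by its log2 difference between libraries 2 and 1 (x axis) and between libraries 3 and 1 (y axis), with members of 6 lists in colour. Liver genes lie at upper right, with medians of 5.39 and 3.45, muscle genes at lower right, with medians of 2.32 and -1.48, and ribosomal protein genes at the centre.

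The catecholamine pathway was read strongly in all 3 libraries. The gene th encodes tyrosine hydroxylase, the first and rate-limiting enzyme, and had 1692, 3884 and 2361 CPM in libraries 1, 2 and 3 (2646 ± 1123 CPM, SD, n = 3). The gene dbh, whose product turns dopamine into noradrenaline, had 2297, 2997 and 3187 CPM (2827 ± 469 CPM). Library 1 was lowest for both, and the highest was library 2 for th and library 3 for dbh. The decarboxylase gene ddc had 548, 853 and 515 CPM, and slc18a2, which encodes the transporter that loads catecholamines into vesicles, had 350, 226 and 276 CPM. The counts of th stood to those of dbh as 0.737, 1.296 and 0.741 to 1, with th above dbh in library 2 only. Of 12 expressed members of the pathway list (13 measured), 5 had a 2-fold and 1 a 4-fold range, or 41.7% and 8.33%, against 24.9% and 7.34% of all expressed genes. The list's mean log2 CPM was 6.65, 7.23 and 6.92.

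Most transcription factors known from sympathetic fate were read, 26 of 29 measured members passing the filter. The other members, ascl1b, phox2ba and six3a, named outside the rule, had at most 2 counts in any library. The bHLH gene hand2 had 597, 434 and 632 CPM, the paired-like homeobox gene phox2a 516, 246 and 382 CPM, and its relative phox2bb 346, 201 and 310 CPM in libraries 1, 2 and 3. Library 2 was lowest for each of these. It was also lowest for tfap2a, an AP-2 factor of the neural crest, at 593, 318 and 407 CPM, and for gata2a, at 366, 249 and 271 CPM, and gata3, at 239, 199.8 and 360 CPM. Of the 26 expressed members, 14 had a 2-fold range (53.8%, against 24.9% of all) and 4 a 4-fold range (15.4%, against 7.34%). Library 2 was the lowest in 12 of the 26. It exceeded library 1 in 12 of them, against 5943 of all 12024 expressed genes. Library 3 exceeded library 2 in 17, against 6086 of the 12024. The mean of the list was 5.24, 5.11 and 5.33 log2 CPM, and by summed CPM library 1 was highest instead, at 3644, 2450 and 3607 CPM.

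Neuronal genes ranged about as widely as expressed genes at large, when not matched for level. Examples are dpysl3, which encodes a regulator of growth cones, with 600, 375 and 555 CPM, the adhesion molecule gene ncam1a with 411, 306 and 460 CPM, and the RNA-binding protein gene elavl4 with 245, 187 and 169.6 CPM. The microtubule regulator gene stmn2a had 94.4, 73.4 and 105 CPM. The growth cone gene gap43 was listed at 0 in every library. Of 53 expressed members (58 measured), 15 had a 2-fold and 3 a 4-fold range, or 28.3% and 5.66%, near the share of all expressed genes. Library 3 was highest in 31 of the 53 and library 2 lowest in 29. Library 3 exceeded library 2 in 40 of the 53, against 6086 of all 12024 expressed genes.

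Secretory granule genes covered a wide run of ranges. The granin-like genes pcsk1nl, with 367, 377 and 396 CPM, and scg3, with 194, 199 and 192 CPM, differed by at most 1.08-fold. The prohormone processing genes cpe, with 339, 307 and 498 CPM, and pcsk1, with 88.1, 189 and 77.7 CPM, differed by 1.62-fold and 2.43-fold. The chromogranin genes chga, with 17.7, 28.9 and 21.3 CPM, and chgb, with 25.6, 19.2 and 42.6 CPM, had different highest libraries. The secretogranin gene scg2b had 18.1, 23.2 and 69.9 CPM, highest in library 3. Of 15 expressed members (20 measured), 7 had a 2-fold and 4 a 4-fold range, or 46.7% and 26.7%, against 24.9% and 7.34% of all expressed genes. The 4 were the peptide genes calca, adcyap1b, vip and tac1, the last 3 named outside the rule. Each was highest in library 2, with means from 4.06 CPM for vip to 21.7 CPM for calca.

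Receptors of sympathetic neurons varied from member to member. The gene ret encodes the receptor tyrosine kinase for GDNF-family ligands and had 60.5, 76.6 and 281 CPM in libraries 1, 2 and 3, while its co-receptor gene gfra3 had 499.6, 647 and 709 CPM. Library 3 was far above the others for ret, and for gfra3 the highest and lowest library were 1.42-fold apart. Of 24 expressed members (27 measured), 10 had a 2-fold and 6 a 4-fold range, or 41.7% and 25%, against 24.9% and 7.34% of all expressed genes.

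The endogenous myc genes had few reads in any library. The fish gene mycn had 3.61, 6.02 and 4.22 CPM (4.62 ± 1.26 CPM, SD, n = 3), myca 9.23, 10.6 and 8.39 CPM, and mycb 7.33, 14.9 and 9.91 CPM, each highest in library 2. For myca, the Poisson intervals of the highest and the lowest library overlapped. The MYCN transgene was not analysed here. The partner gene max had 108, 131 and 166 CPM and mgaa, which encodes a MAX-binding repressor, 288, 205 and 241 CPM. Of 11 members, all expressed, 1 had a 2-fold range and 0 a 4-fold range (9.09%, against 24.9% of all at 2-fold). The gene gas7a, not a target in this genotype, had 23.4, 9.95 and 33.3 CPM, lowest in library 2.

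Several genes linked to MYCN-driven growth were strongly read. The nucleolar genes ncl, with 1356, 1099 and 1279 CPM, and npm1a, with 558, 349.8 and 527 CPM, encode proteins of ribosome assembly. The pyrimidine synthesis gene cad had 706, 863 and 894 CPM. The defining marker odc1 was read less, at 37.2, 77.6 and 61.1 CPM. The nucleoside diphosphate kinase gene nme2b.1 had 1454, 1349 and 1370.1 CPM, whereas its tandem relative nme2b.2 had 176, 1639 and 48.7 CPM, and counting between such close copies is uncertain. Of 44 expressed members (45 measured), 9 had a 2-fold range (20.5%, against 24.9% of all expressed genes). Only nme2b.2 had a 4-fold one (2.27%, against 7.34% of all). The list mean was 6.66, 6.58 and 6.81 log2 CPM, highest in library 3, but by summed CPM library 2 was highest.

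Few cell cycle genes had a wide range, although the median of the list, 1.54-fold, lay above the 1.48-fold of all expressed genes. The proliferation marker gene mki67 had 89.5, 103 and 94.1 CPM (95.5 ± 6.72 CPM, SD, n = 3), the topoisomerase gene top2a 86.6, 64.4 and 89.9 CPM, and the replication clamp gene pcna 66.2, 49.6 and 93.5 CPM in libraries 1, 2 and 3. The mitotic kinase gene cdk1 had 12.7, 7.21 and 12.1 CPM. Of 63 expressed members (65 measured), 9 had a 2-fold and 0 a 4-fold range, or 14.3% and 0%, against 24.9% and 7.34% of all expressed genes. Library 2 was lowest in 50 of the 63, and the list mean was 4.26, 3.86 and 4.35 log2 CPM. Library 2 exceeded library 1 in 9 of the 63, against 5943 of all 12024 expressed genes. Library 3 exceeded library 2 in 56 of them, against 6086 of the 12024. Most members thus lay slightly lower in library 2. The median difference was -0.41 for library 2 minus library 1 and 0.48 for library 3 minus library 2.

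Most genes of the mesenchymal programme that neuroblastoma cells can adopt were highest in library 2. The fibronectin gene fn1b had 558, 4155 and 1123 CPM and the annexin gene anxa1a 61.9, 208 and 26.7 CPM in libraries 1, 2 and 3, while the defining factor gene prrx1a had 3.12, 11.95 and 1.35 CPM and snai2 8.74, 8.03 and 1.88 CPM. Of 25 expressed members (32 measured), library 2 was highest in 18, library 1 in 4, among them snai2, and library 3 in 3. Library 2 exceeded library 1 in 19 of the 25, against 5943 of all 12024 expressed genes. A 2-fold range was found in 14 and a 4-fold range in 6, or 56% and 24%, against 24.9% and 7.34% of all expressed genes. Schwann and neural crest markers were low, with sox10 at 8.19, 11.04 and 4.05 CPM, foxd3 at 5.44, 5.47 and 2.82 CPM, and the myelin genes mpz at 9.60, 22.3 and 1.99 CPM and plp1b at 18.6, 39.7 and 21.2 CPM. Library 2 was highest for each, by a small margin for foxd3, and the lowest was library 3 except for plp1b, which was lowest in library 1. The summed mesenchymal level was 1432, 5681 and 1866 CPM, of which fn1b made the largest part. The summed level of the markers of fibroblasts and mural cells was 6395, 8056 and 5848 CPM, and that of epidermis 2274, 8115 and 2014 CPM. That of skeletal muscle was 2337, 11613 and 967 CPM, and that of liver 6557, 84430 and 26726 CPM. The order of the libraries for fn1b was that of the liver sum. The part of these tissues in the mesenchymal values was not tested.

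Transcripts of the liver set the libraries furthest apart. The liver fatty acid binding protein gene fabp10a had 46.0, 2204 and 512 CPM, the fibrinogen gene fgb 14.4, 1579 and 425 CPM, and the apolipoprotein gene apoa2 109, 6347 and 2168 CPM in libraries 1, 2 and 3. Each was highest in library 2, intermediate in library 3 and lowest in library 1. The 49 measured liver genes together took 0.703%, 7.68% and 2.74% of the counts. Of 45 expressed members, 44 had a 2-fold and 42 a 4-fold range, or 97.8% and 93.3%, against 24.9% and 7.34% of all expressed genes. The median log2 difference was 5.39, or 41.9-fold, for library 2 minus library 1, 3.45 for library 3 minus library 1 and -1.90 for library 3 minus library 2, with quartiles of -2.21 and -1.68 for the last. In bulk tissue, more cells of a type and more RNA per cell cannot be told apart.

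Ranges within the liver list differed in size, from 1.26-fold for apoa1a to 145-fold for itih3a. The counts of tfa stood to those of fabp10a as 5.45, 4.74 and 7.81 to 1 in libraries 1, 2 and 3, while tfa alone spanned 41.7-fold and fabp10a 47.8-fold. The inter-alpha-trypsin inhibitor gene itih3a had 1.28, 206 and 64.9 CPM, and the complement gene c3a.1 71.4, 6798 and 1095 CPM. The c3a genes are near-identical copies, between which reads could have been divided. Library 2 exceeded library 1 in 44 of the 45 expressed members, against 5943 of all 12024 expressed genes. Of the 45, 43 were lowest in library 1. Of the other two, apoa1a, which the gut list also holds, was lowest in library 2, with 903, 716 and 906 CPM, and lect2l, named outside the rule, was lowest in library 3, with 20.8, 38.7 and 12.96 CPM.

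Skeletal muscle transcripts showed another order of the libraries. The muscle creatine kinase gene ckma had 108, 764 and 31.7 CPM, the myosin light chain gene mylpfa 159, 769.9 and 21.9 CPM, and the troponin gene tnnt3b 61.8, 516 and 14.8 CPM in libraries 1, 2 and 3. Library 2 was again highest, but here library 3 was lowest. Of 55 expressed members (63 measured), 53 had a 2-fold and 45 a 4-fold range, or 96.4% and 81.8%, against 24.9% and 7.34% of all expressed genes. Of the 55, 50 were highest in library 2 and 50 lowest in library 3. Library 2 exceeded library 1 in 50, against 5943 of all 12024 expressed genes. Library 3 exceeded library 2 in 1, against 6086 of the 12024. The median log2 difference was 2.32 for library 2 minus library 1, -1.48 for library 3 minus library 1 and -3.59 for library 3 minus library 2. The heart markers myl7 and nppa were near the detection limit, with myl7 at 0.489, 0 and 0 CPM and nppa at 0.367, 0 and 0.117 CPM, while vmhc, a ventricular myosin gene, had 97.2, 317 and 39.3 CPM in the order of the muscle genes.

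Most skin and connective tissue genes were also highest in library 2. The keratin genes krt4, with 356, 1967 and 226 CPM, and krt5, with 29.3, 477 and 18.9 CPM, are typical of surface epithelium, whereas krt8, found in many simple epithelia, had 644, 1053 and 685 CPM. Library 2 was highest in 25 of 27 expressed epidermal and epithelial members (41 measured). It exceeded library 1 in 26 of the 27, against 5943 of all 12024 expressed genes. Of the 27, 19 had a 2-fold and 9 a 4-fold range, or 70.4% and 33.3%, against 24.9% and 7.34% of all expressed genes. The collagen gene col1a1a had 507, 1072 and 266 CPM and the matrix gene dcn 46.7, 92.3 and 17.1 CPM, in the same order as muscle. The mural cell gene rgs5a, a regulator of G-protein signalling, did not follow them, with 3092, 2108 and 3307 CPM, and the pericyte receptor gene pdgfrb was listed at 0 in every library. Of 28 expressed fibroblast and mural cell members (36 measured), 14 had a 2-fold and 3 a 4-fold range, or 50% and 10.7%, against 24.9% and 7.34% of all expressed genes.

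**Figure D3:**
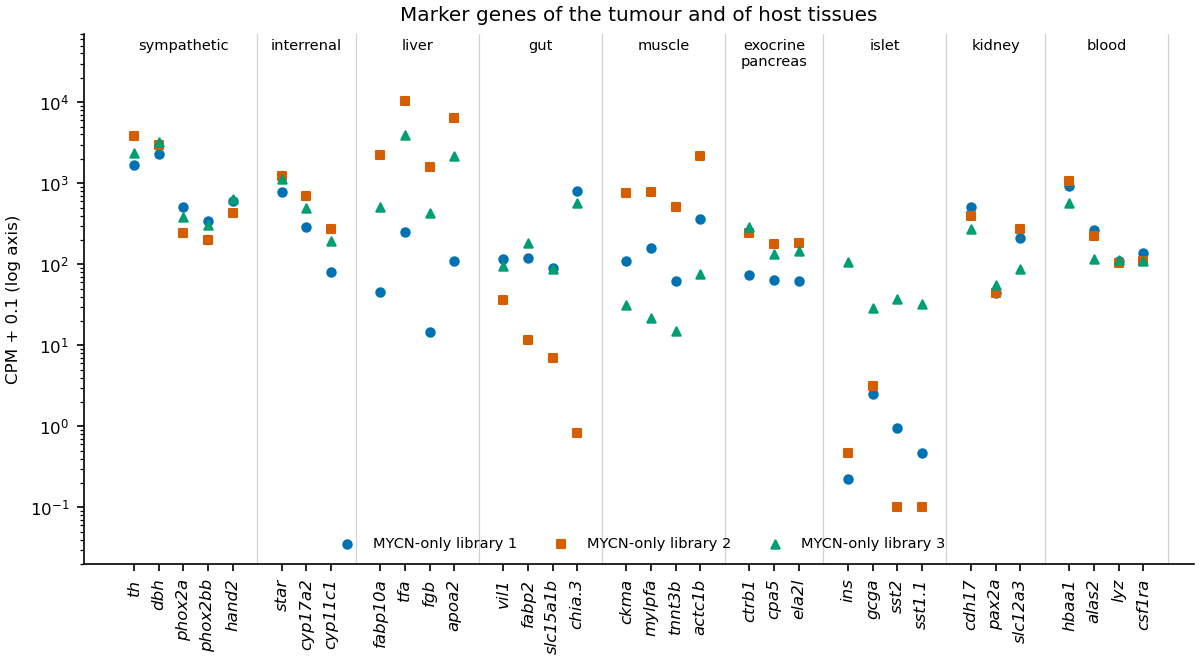
CPM + 0.1 (y axis, log scale) of marker genes (x axis) of sympathetic cells and 8 host tissues in MYCN-only libraries 1, 2 and 3. Liver and muscle markers lie far apart with library 2 on top, sympathetic, kidney and blood markers lie closer together, the gut markers are lowest in library 2, and islet hormones are highest in library 3.

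Gut epithelium divided into genes that were low in library 2 and genes that were not. The brush border genes vil1, with 116, 36.3 and 96.4 CPM, and slc15a1b, a peptide transporter gene, with 89.5, 6.84 and 87.0 CPM, and the intestinal fatty acid binding protein gene fabp2, with 119, 11.5 and 182 CPM, were lowest in library 2. The chitinase gene chia.3 had 802, 0.730 and 575 CPM, which is 8 counts in library 2 and the widest range of any named gene, 9.86 log2 units. The apolipoprotein E gene apoea had 746, 6.11 and 703 CPM. The chia genes are close copies. Of 36 expressed members (44 measured), 28 had a 2-fold and 17 a 4-fold range, or 77.8% and 47.2%, against 24.9% and 7.34% of all expressed genes. Library 2 was lowest in 21 and highest in 12, among them apobb.1, which liver also makes. Library 2 exceeded library 1 in 15 of the 36, against 5943 of all 12024 expressed genes. The list mean was 5.69, 4.51 and 5.84 log2 CPM, lowest in library 2, while by summed CPM library 2 was highest, at 10009.6, 17829.7 and 11676 CPM, of which apobb.1 made the largest part.

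Digestive enzymes of the pancreas were lowest in library 1. The chymotrypsinogen gene ctrb1 had 74.2, 240.3 and 289 CPM, the trypsin gene try 64.8, 261 and 230.0 CPM, and the elastase gene ela2l 62.0, 185 and 146 CPM in libraries 1, 2 and 3. Libraries 2 and 3 were close to each other. Of 28 expressed members (33 measured), 27 were lowest in library 1. Library 2 exceeded library 1 in all 28, against 5943 of all 12024 expressed genes. A 2-fold range was found in 25 and a 4-fold range in 6, or 89.3% and 21.4%, against 24.9% and 7.34% of all expressed genes. The median log2 difference was 1.54 for library 2 minus library 1, 1.32 for library 3 minus library 1 and -0.08 for library 3 minus library 2.

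Islet hormones were read in library 3 and hardly in the others. The insulin gene ins had 0.122, 0.365 and 107 CPM, the glucagon gene gcga 2.38, 3.01 and 28.6 CPM, and the somatostatin genes sst2 and sst1.1 had 0.856, 0 and 37.7 CPM and 0.367, 0 and 32.1 CPM. Library 3 alone reached 10 CPM for each of the 4. The islet factor gene pdx1 did not share this order, with 6.48, 7.30 and 1.99 CPM. Only 6 of the 17 measured islet genes passed the filter, which asks for enough counts in each of the 3 libraries, so ins, sst2 and sst1.1 are not among the 882 genes with a 4-fold range. The mean of those 6 was highest in library 2, unlike the hormones.

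The same filter left out 72 symbols that reached 10 CPM in some library, 8 highest in library 1, 47 in library 2 and 17 in library 3. Chosen after their values were seen, they included the clotting factor gene f7, with 0.244, 59.5 and 17.0 CPM, the thyroid hormone carrier gene ttr, with 0.367, 20.6 and 6.39 CPM, and the lipid uptake gene cd36, with 43.0, 0.365 and 43.6 CPM. The first 2 followed the order of the liver genes and the last that of the gut genes. The counts of 2-fold and 4-fold genes given above leave these 72 symbols out.

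Genes of the interrenal gland were read in each library. Of the 2 measured defining markers, however, only star exceeded 1 CPM in libraries 1 and 2. The other, cyp17a1, had 0.917, 0.365 and 2.23 CPM in libraries 1, 2 and 3. The gene star, whose product carries cholesterol into mitochondria, had 769, 1231 and 1118 CPM (1039 ± 240.4 CPM, SD, n = 3). The steroid hydroxylase gene cyp17a2 had 289, 690.1 and 495 CPM and cyp11c1, whose product makes cortisol, 79.6, 269 and 191 CPM. Library 1 was lowest for all 3 and in 10 of 12 expressed members (14 measured). Library 2 exceeded library 1 in 10 of the 12, against 5943 of all 12024 expressed genes. The median log2 difference was 0.79 for library 2 minus library 1, 0.80 for library 3 minus library 1 and -0.17 for library 3 minus library 2, and 4 members had a 2-fold and 2 a 4-fold range, or 33.3% and 16.7%, against 24.9% and 7.34% of all expressed genes. The levels of th and dbh had the same lowest library.

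Kidney genes were read in each library too. The tubule cadherin gene cdh17 had 504, 396 and 271 CPM, the nephron factor gene pax2a 43.6, 43.8 and 55.4 CPM, and the salt transporter gene slc12a3 214, 271 and 88.3 CPM. The first and the last were lowest in library 3, and pax2a was nearly even. Of 45 expressed tubule members (49 measured), 24 had a 2-fold and 8 a 4-fold range, or 53.3% and 17.8%, against 24.9% and 7.34% of all expressed genes. Library 3 was lowest in 25 of the 45. It exceeded library 2 in 11 of the 45, against 6086 of all 12024 expressed genes. The podocyte gene podxl had 113, 108 and 106 CPM, while nphs1, which encodes nephrin of the filtration slit, had 10.1, 6.93 and 21.5 CPM. In 9 of 15 podocyte members library 3 was highest. It exceeded library 1 in 11 of the 15, against 5986 of all 12024 expressed genes.

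Blood and vessel markers were read in every library, although only 1 of the 2 measured defining markers of lymphocytes exceeded 1 CPM in each. The lysozyme gene lyz of neutrophils and macrophages had 111, 105 and 114 CPM (109.7 ± 4.67 CPM, SD, n = 3), the macrophage receptor gene csf1ra 138, 109 and 109.8 CPM, and the haemoglobin gene hbaa1 919, 1075 and 576 CPM in libraries 1, 2 and 3. The erythroid haem synthesis gene alas2 had 262, 220.4 and 115 CPM, also lowest in library 3. Of 33 expressed erythroid members (37 measured), 9 had a 2-fold and 2 a 4-fold range, or 27.3% and 6.06%, near the share of all expressed genes. Library 3 was lowest in 23 of the 33. It exceeded library 1 in 6 of the 33, against 5986 of all 12024 expressed genes. Macrophage members were lowest in library 3 in 19 of 26 and highest in library 1 in 17. Library 3 exceeded library 1 in 2 of the 26, against 5986 of all 12024 expressed genes. A 2-fold range was found in 12 of these 26 (46.2%), in 8 of 16 neutrophil members (50%), in 4 of 19 lymphocyte members (21.1%) and in 8 of 12 thrombocyte members (66.7%), against 24.9% of all expressed genes. A 4-fold range was found in 5, 0, 2 and 4 of them, or 19.2%, 0%, 10.5% and 33.3%, against 7.34%. The summed level of the thrombocyte list was 745, 4732 and 1345 CPM, most of which came from fn1b, a gene that the mesenchymal list also holds. Levels of the endothelial genes kdrl, a VEGF receptor gene with 184, 203 and 163 CPM, and cdh5, with 65.5, 59.9 and 70.2 CPM, were close. Of 38 expressed endothelial members (40 measured), 9 had a 2-fold and 1 a 4-fold range, or 23.7% and 2.63%, near the share of all expressed genes.

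Several tissues had markers at low levels or near the detection limit. All 4 defining markers of ovary and oocytes lay under 1 CPM in the 3 libraries, the highest value being 0.733 CPM for buc in library 1, and 8 of 33 measured members passed the filter. The testis markers amh, gsdf, dmrt1 and sycp3 lay under 1 CPM in library 1, between 1.09 and 1.73 CPM in library 2 and between 0.822 and 3.05 CPM in library 3. The rod gene rho of the retina was at 0, 0.182 and 0 CPM. The melanocyte factor gene mitfa was read at 606, 312 and 321 CPM, yet the melanin synthesis genes dct, at 0.0611, 0.274 and 0 CPM, and tyr, at 0.489, 1.37 and 0.762 CPM, were near the detection limit. Of the 4 defining markers of pigment cells, 2, 3 and 2 exceeded 1 CPM in libraries 1, 2 and 3. Of 20 measured pigment cell members, 14 passed the filter.

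**Figure D4:**
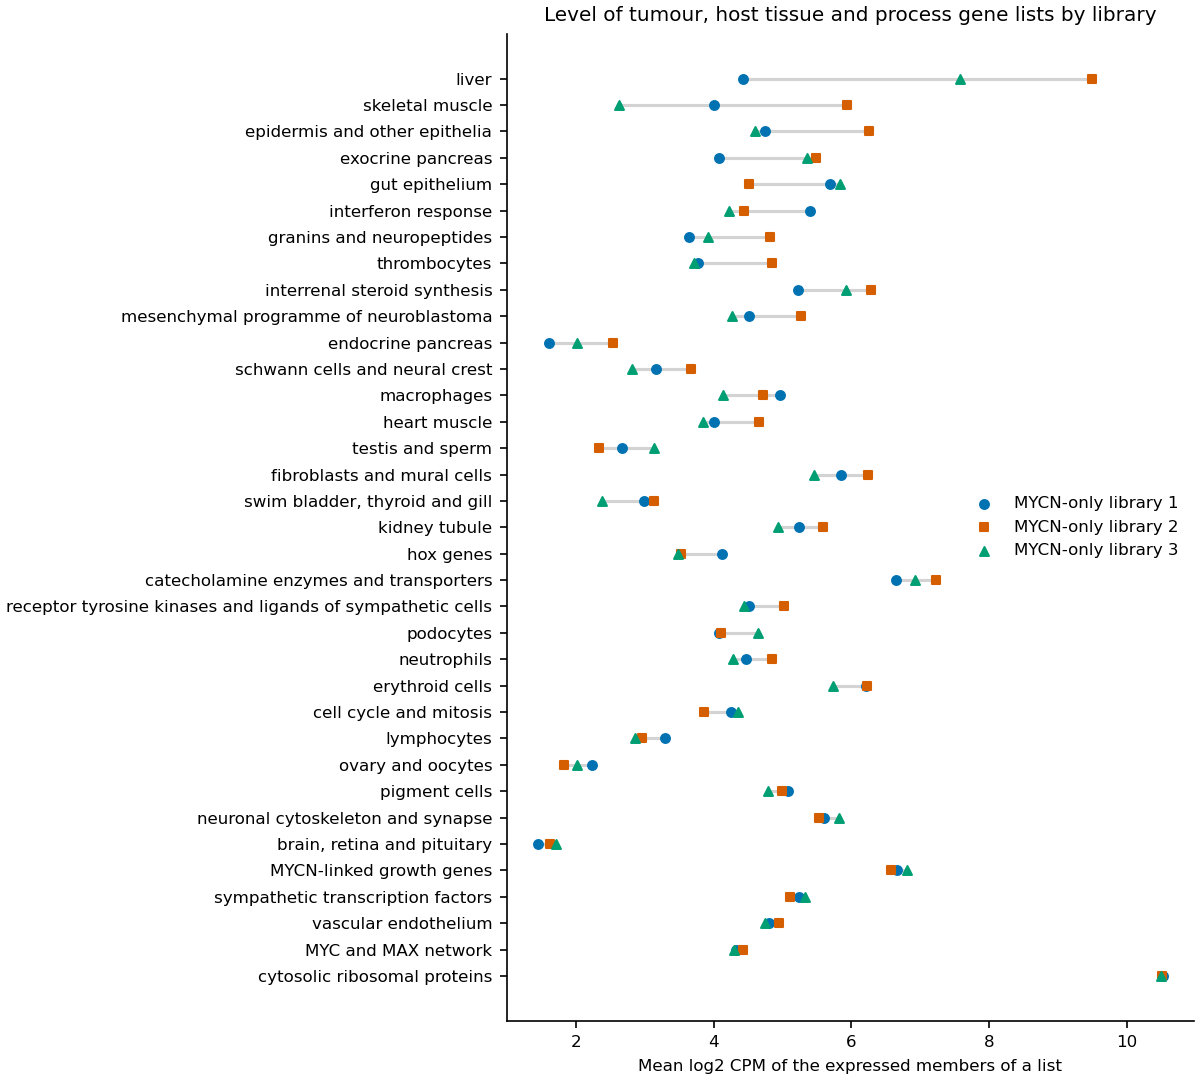
Mean log2 CPM (x axis) of the expressed members of 32 gene lists and 3 added groups in MYCN-only libraries 1, 2 and 3, ordered by the distance between the highest and the lowest library. Liver (4.43, 9.49 and 7.57) and skeletal muscle (4.01, 5.94 and 2.63) have the longest bars, and ribosomal proteins (10.52, 10.51 and 10.49) the shortest.

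Ribosomal proteins marked the other end of the scale. They were grouped after the values were seen, so their counts only describe. Of the 81 genes, 1 had a 2-fold range (1.23%) and 0 a 4-fold range, against 24.9% and 7.34% of all expressed genes. The median range was 0.12 log2 units, or 1.09-fold. It was 1.13-fold for the 124 genes over 1000 CPM, many of them ribosomal protein genes. The median differences of the 81 genes were -0.02, -0.01 and 0.02 for library 2 minus 1, 3 minus 1 and 3 minus 2. TMM scaling matches the bulk of genes, and with total counts alone the median of all expressed genes would shift by -0.24 for library 2 minus library 1, -0.06 for library 3 minus library 1 and 0.17 for library 3 minus library 2. The genes with the narrowest ranges at 10 CPM or more were arih1, a ubiquitin ligase gene with 61.2, 61.3 and 61.5 CPM, mlst8, a subunit gene of the mTOR complexes with 38.6, 38.4 and 38.5 CPM, and cct6a, a chaperonin subunit gene with 742, 742 and 746 CPM. Next came mbtps2, ptpreb, cnot1, fam199x, rab3c, pdcd10a and arid1aa, each with a range of at most 0.02 log2 units.

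**Figure D5:**
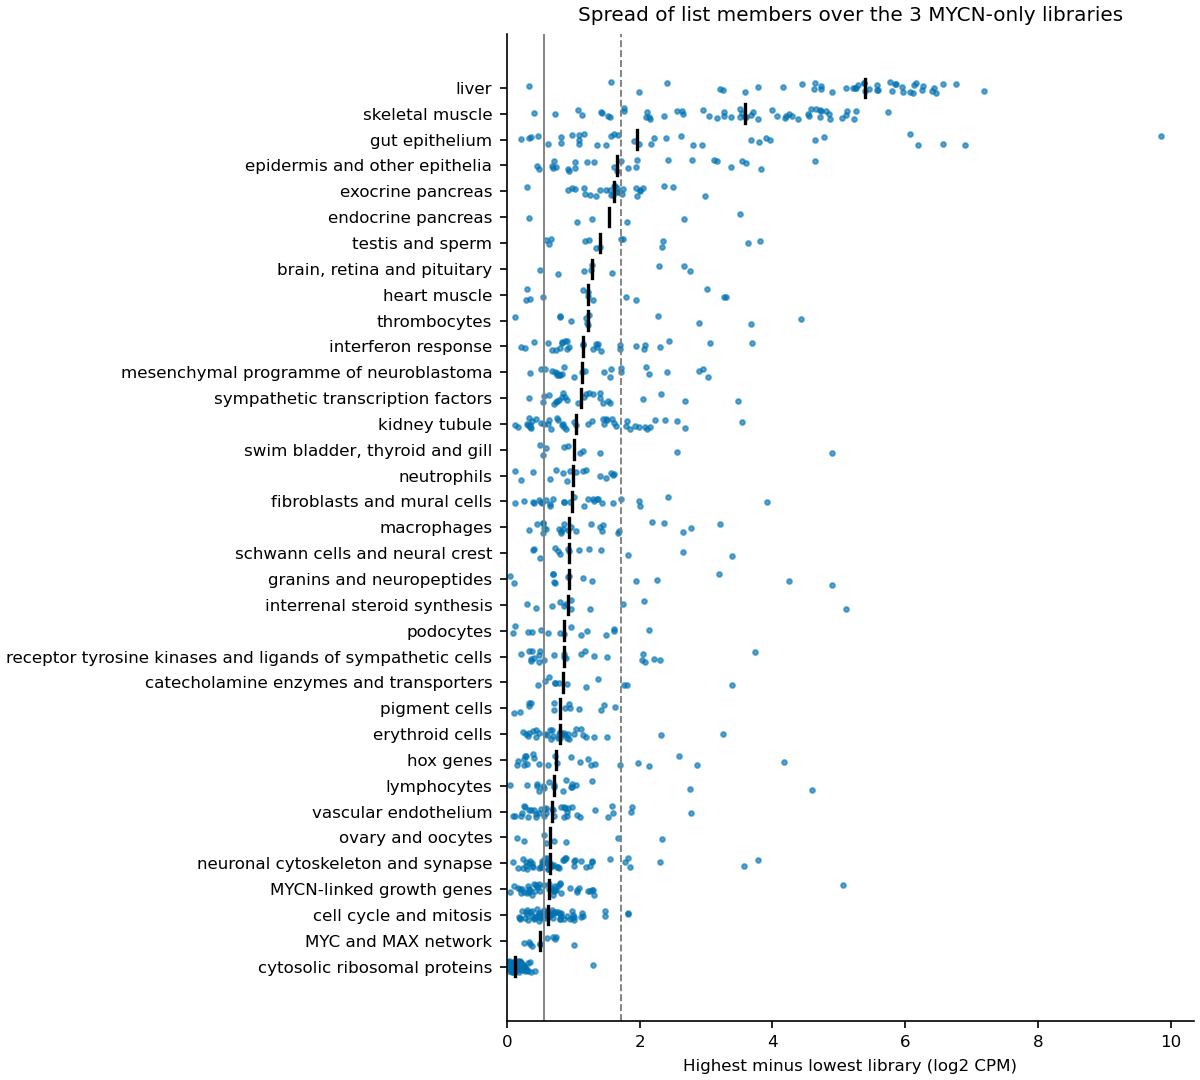
Range of each expressed list member over the MYCN-only libraries (x axis, highest minus lowest library in log2 CPM), by list, with a tick at the list's median. The solid line is the median of all 12024 expressed genes (0.56) and the dashed line their 90th percentile (1.72). The medians of liver (5.39), skeletal muscle (3.59) and gut epithelium (1.95) lie beyond the dashed line. Those of the MYC and MAX network (0.50) and ribosomal proteins (0.12) lie below the solid one.

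Each library also had genes that set it apart from the other two. In library 1, these included hoxc8a, a homeobox gene of trunk position, with 28.9, 2.01 and 1.47 CPM, piwil2, which encodes a Piwi protein of the germ line, with 96.5, 6.75 and 9.85 CPM, and mxb, an interferon-induced GTPase gene, with 94.4, 10.9 and 7.16 CPM. In library 2 they included the intelectin gene itln3, with 0.733, 119.5 and 2.58 CPM, the calcitonin gene calca, with 3.48, 59.8 and 1.88 CPM, and the sodium channel gene scn1a, with 7.03, 108 and 4.34 CPM. In library 3 they included the synapsin gene syn1, with 5.32, 9.03 and 75.2 CPM, islr2, with 13.7, 17.7 and 133 CPM, and slc18a3b, which encodes a vesicular acetylcholine transporter, with 7.82, 1.82 and 31.3 CPM. Library 3 was also far below the others for myo3a, a myosin gene with 157, 28.1 and 2.11 CPM, and tnfrsf9a, a lymphocyte receptor gene with 215, 57.5 and 8.74 CPM.

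Interferon-response genes and hox genes were drawn together after their values had been seen, so their counts describe and support nothing. Of 29 expressed interferon-response genes, 26 were highest in library 1, for example stat1b, a signal transducer gene, with 290.4, 78.5 and 68.2 CPM, and stat2, with 619, 253 and 362 CPM. Library 2 exceeded library 1 in 3 of the 29, against 5943 of all 12024 expressed genes. The median log2 difference was -0.87 for library 2 minus library 1, -0.91 for library 3 minus library 1 and -0.15 for library 3 minus library 2, and 16 had a 2-fold and 6 a 4-fold range, or 55.2% and 20.7%, against 24.9% and 7.34% of all expressed genes. Of 48 hox symbols 24 were expressed. Those with the highest levels, hoxb8a with 325, 187 and 139.99 CPM, hoxb3a with 163, 136 and 163 CPM and hoxb5a with 124, 98.0 and 149.9 CPM, belong to the hoxba cluster. In the hoxca cluster, hoxc3a had 27.4, 8.30 and 11.8 CPM, hoxc5a 19.9, 3.28 and 3.17 CPM, and hoxc6a 24.7, 3.28 and 8.62 CPM, each highest in library 1 as hoxc8a was.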

How the data were processed

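RNA was extracted from zebrafish tumours with Trizol and, per the labels' protocols, made into stranded total RNA libraries for paired-end Illumina sequencing. The submitters' processing notes name TopHat2 2.0.14, Bowtie2 2.2.6, Subread, featureCounts 1.4.6 and the build danRer10. The authors deposited raw counts, 1 whole number per gene symbol and library. How strand and multiple alignments were handled, and with which annotation, is not given in the sources used here. Overlapping genes and close copies are therefore uncertain.

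Only the 3 MYCN-only columns were used (0 columns lacked a sample), and no group test was run, since 1 group was described. The function filterByExpr removed low symbols, which leaves out genes with too few counts in any of the 3 libraries. Counts were scaled by TMM, with a prior count of 2 for log2 CPM. Dispersion was fitted with an intercept only, and the range of each gene was the highest minus the lowest library. The procedure was also run on simulated counts. There, recovery of raised genes was required only at a spread lower than that of these data. Intervals are exact Poisson intervals at 95%, and cover counting error only. No table of transcript lengths was used here, so genes are ordered by share of counts and no level per length is given.

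There were 32 gene lists, with up to 4 defining markers each. The members and lists were chosen with earlier results of these data known. A further 3 groups, interferon-response, hox and ribosomal protein genes, were added after the values were seen. Of the symbols, 14519 matched the RefSeq gene table of assembly GRCz12tu, used for names only. The genes named are the 20 with the largest mean share, the 5 highest members and the defining markers of each list, the 15 widest and 10 narrowest ranges at a mean of at least 10 CPM, the 8 with the widest gap above and below the others in each library, and gas7a, mycn, myca and mycb. Examples were drawn from these, without placeholder symbols. Other list members named (hoxc3a, hoxc5a, hoxc6a, f7, cd36, ttr, lect2l, ascl1b, phox2ba, six3a, adcyap1b, vip and tac1) were chosen after their values were seen.

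Alternatives were RLE factors, total counts, other filters, another prior count, summed CPM, members of that list alone and leaving out each library. Analyses used R 4.3.3 and edgeR 4.0.16, and figures matplotlib 3.10.9. Some genes are not reported here.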

Additional observations from a re-analysis of the deposited data

How the results depend on the processing

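With no filter beyond 1 count, the biological coefficient of variation was 45.4%. The 2-fold and 4-fold counts were then 4565 and 1704, the 2-fold counts of pairs 3002 (libraries 1 and 2), 2200 (1 and 3) and 3130 (2 and 3). Libraries 1, 2 and 3 were highest in 295, 1126 and 283 of the 4-fold genes and lowest in 675, 345 and 684. With a mean of at least 1 CPM, library 1 was highest in 178, library 3 highest in 168 and library 2 lowest in 202. Fewer libraries leave fewer chances of a wide range, and leaving out each in turn gave 31.8% to 42.7% for the coefficient of variation, 1358 to 2032 for the 2-fold count and 290 to 589 for the 4-fold count. Under the same omissions library 1 was lowest in 174 to 509, library 2 lowest in 66 to 80, library 3 highest in 66 to 174 and library 3 lowest in 116 to 467. RLE factors kept each of these values, and a prior count of 0.5 each of the counts, within 1.5 times. The distance between the highest and lowest library of a list changed sign with summed CPM for receptor tyrosine kinases (-0.0054), the MYC network (-0.15), growth genes (-0.077), gut (-0.61), heart (-0.17), endothelium (-0.0063) and testis (-0.026), and with total counts for the MYC network (-0.038). The cause was not tested. Levels per coding length were not run, because no table of lengths was used here. No paired analysis was possible because no test was run and only 1 group was described. Depth limits genes under 10 CPM most, and 3 libraries limit every spread given.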
